A study of Mus musculus with 2 samples.

Results

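The cytoskeletal motor genes of the newborn mouse hindbrain were the 68 genes whose symbols name a kinesin, a cytoplasmic dynein subunit or a numbered dynactin subunit. They were picked by symbol from 43309 nuclear mouse genes, without use of any level. The set held 46 kinesin genes with their light chains and the adaptor Kifap3, 16 dynein genes and 6 dynactin genes, and the annotation types all 68 as protein-coding. RNA came from the hindbrain of 2 pups of strain B6NCrl at postnatal day 0, labelled pup 1 (replicate 1) and pup 3 (replicate 2), and the labels name no treatment or allele. Each library was made from 13 pg of extracted RNA longer than 200 nt, an amount called 1 cell-equivalent, so it sampled a trace of mixed tissue RNA and not a single cell. The labels give the pups 1 donor record and no sex, and the only comparison the design allows is pup 1 with pup 3. With 1 library per animal no difference below has a replicate check or a p-value.

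Kinesins and dyneins turn the energy of ATP into steps along microtubules. Most kinesins move towards the plus end, which in an axon points to its tip, and carry vesicles, organelles and cytoskeletal proteins outwards. Cytoplasmic dynein-1 moves towards the minus end, needs its partner complex dynactin for long runs, and brings signalling endosomes and worn organelles back to the cell body. Other members of these families build the mitotic spindle or run inside cilia. A newborn hindbrain holds long-axoned neurons, dividing progenitors and the lining of the ventricle, where all of these roles occur.

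The gene level here is TPM, a length-scaled share of transcripts, rescaled over nuclear genes, and the difference is that of log2(TPM + 1), pup 1 minus pup 3. Counts are expected counts, in which a read that fits several transcripts is divided among them, and a count of at least 5 is called detected. The libraries held 35462381 expected counts in pup 1 and 29866728 in pup 3, and 12251 nuclear genes were detected in pup 1 against 10527 in pup 3. A floor of 3 counts amounts to 0.145 TPM in pup 1 and 0.164 in pup 3 when the effective length is 1000 nt. Of 10 neuron markers 9 were detected in both pups, and of 11 hindbrain markers 8 were, with En2 and Hoxb2 at 0 counts in both. No forebrain marker of 8 was detected. The summed neuron markers stood at 10136 TPM in pup 1 and 7161 in pup 3, the astrocyte markers at 4563 TPM in pup 1 and 4202 in pup 3, and the oligodendrocyte lineage markers at 433 TPM in pup 1 and 249 in pup 3. The blood markers, of red cells, stood at 1486 TPM in pup 1 and 3941 in pup 3, the endothelial markers at 175 TPM in pup 1 and 198 in pup 3 and the microglial markers at 199 TPM in pup 1 and 54.7 in pup 3. These sums cover uneven members. Endothelial Esam had 2682 counts in pup 1 and 2 in pup 3, whereas Flt1 had 0 in pup 1 and 4782 in pup 3. Of the astrocyte markers 5 were detected in both pups, while Aldh1l1 had 6228 counts in pup 1 and 1 in pup 3. In pup 3 the microglial Tyrobp, Aif1 and Csf1r had 0 counts, and C1qb held 54.6 TPM of that sum. The part of these lists in the differences below was not tested.

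The sequences of 4 dynein light chain genes are so alike that their reads can hardly be assigned to a single copy. Dynlt1a, Dynlt1b, Dynlt1c and Dynlt1f encode the Tctex-type light chain and lie together on chromosome 17 of GRCm38. Their coding sequences span 6310876 to 6317400 (minus strand) for Dynlt1a, 6430212 to 6435964 (plus strand) for Dynlt1b, 6601810 to 6607568 (plus strand) for Dynlt1c and 6649270 to 6655800 (minus strand) for Dynlt1f. All 4 coding sequences have 339 nt and differ at 1 position, given as C21A and counted from the A of the start codon, with Dynlt1b as the odd copy. The first 60 nt, from the GENCODE M21 transcripts, carry that position in capitals.
Dynlt1a, Dynlt1c and Dynlt1f: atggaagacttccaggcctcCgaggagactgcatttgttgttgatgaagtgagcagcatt
Dynlt1b: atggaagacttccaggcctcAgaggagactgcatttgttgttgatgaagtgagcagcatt
A read from within the coding sequence could be assigned to Dynlt1b only if it covered this base, and to no single copy among the other 3 at all. Of the distinct 100-nt windows of the annotated transcripts, the share that another gene also holds was 50.8% for Dynlt1a, 82.0% for Dynlt1b, 80.7% for Dynlt1c and 85.1% for Dynlt1f. The Dynlt1a share is over 3222 windows of its M21 transcript, which is longer than the 742-nt transcript on which its reads were counted. It therefore does not give the share of the counted transcript. The deposited posterior SD of the count was 67.4 in pup 1 and 102 in pup 3 for Dynlt1a, and 93.4 in pup 1 and 114 in pup 3 for Dynlt1b. Of all 68 members 44 shared no window with another gene and 16 shared over 5%. Beyond the Dynlt1 copies the only share over 20% was that of Kif3c, at 42.3%, with another annotated gene.

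Most motor genes were detected in both pups. The count was 44 of 68 members (64.7%), where the background was 20.6% of all nuclear genes and 37.8% of protein-coding genes. A further 8 members were detected in pup 1 only, against backgrounds of 7.67% of nuclear and 12.3% of protein-coding genes, and 3 in pup 3 only, against 3.69% and 5.45%. The remaining 13 were detected in neither pup, beside 68% of nuclear and 44.5% of protein-coding genes. Of the 55 members detected in at least 1 pup, 11 were seen in 1 pup only, where the background was 35.5% of nuclear and 31.9% of protein-coding genes. By family the counts were 23 of 46 kinesin genes, 15 of 16 dynein genes and 6 of 6 dynactin genes in both pups. Level went with detection, in part by construction. The level used is the mean TPM of the 2 pups, which absence from 1 pup lowers. Kif6 (16.5 TPM in pup 1) and Kif23 (15.1 TPM in pup 1) fell under 10 TPM in this way. Of members averaging under 10 TPM and seen in at least 1 pup, 1 of 11 was detected in both, where the share of protein-coding genes at that level was 32.2%. From 10 to 30 TPM it was 10 of 11, beside 67.1%, and all 15 members from 30 to 100 TPM, all 11 from 100 to 300 TPM and all 7 above that were detected in both, beside 94.2%, 99.9% and 100% of protein-coding genes. Cells that carry a motor being fewer and their RNA of it being less cannot be told apart in tissue RNA.

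Differences past 4-fold were counted among members with at least 50 counts in at least 1 pup. The count was 8 of 51 (15.7%), below the background percentages of 40.7 over all nuclear genes and 39.8 over protein-coding genes. These backgrounds are not matched to the members for level. Higher in pup 1 were 5 members (Kif6, Kif23, Dync1li2, Kif21a and Klc2), where the background was 24% of nuclear and 23.6% of protein-coding genes. Higher in pup 3 were 3 members (Dynlrb2, Kif11 and Kif20b), beside 16.7% and 16.2%. On other scales the split was 7 higher in pup 1 and 3 in pup 3 (CPM, where Kif13b, Kif26a and Kif1c also passed and Klc2 did not) or 3 higher in pup 1 and 4 in pup 3 (coding transcripts alone, where Kif6 and Klc2 dropped out and Dync2h1 came in). Kif13b, Kif26a and Kif1c stayed under 4-fold on log2(TPM + 1) because a pseudocount of 1 shrinks differences at their levels in pup 1, which were 2.34 TPM for Kif13b, 2.27 TPM for Kif26a and 1.49 TPM for Kif1c. Among the 44 members detected in both pups the median log2 TPM difference was -0.26, beside -0.12 over all nuclear genes detected in both. The median size of that difference was 0.90 for the members and 0.90 over all nuclear genes detected in both. By level it was 1.29 for members and 1.26 for protein-coding genes at 10 to 30 TPM. At 30 to 100 TPM it was 0.93 for members and 0.89 for protein-coding genes. At 100 to 300 TPM it was 0.53 for members and 0.67 for protein-coding genes, and above 300 TPM 0.75 for members and 0.50 for protein-coding genes. Of these 44 members 18 were higher in pup 1 and 26 in pup 3. The 68 genes summed to 6090 TPM in pup 1 and 8804 in pup 3. Dynein genes held most of the sum in both pups, with 3361 TPM in pup 1 and 4728 in pup 3, of which the small light chains took 2785 TPM in pup 1 and 4003 in pup 3. Counted without length, as a share of nuclear counts scaled to a total of 1e+06 (CPM), kinesins came first, at 4207 CPM in pup 1 and 5206 in pup 3, against 2248 CPM in pup 1 and 2975 in pup 3 for the dynein genes.

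**Figure D1:**
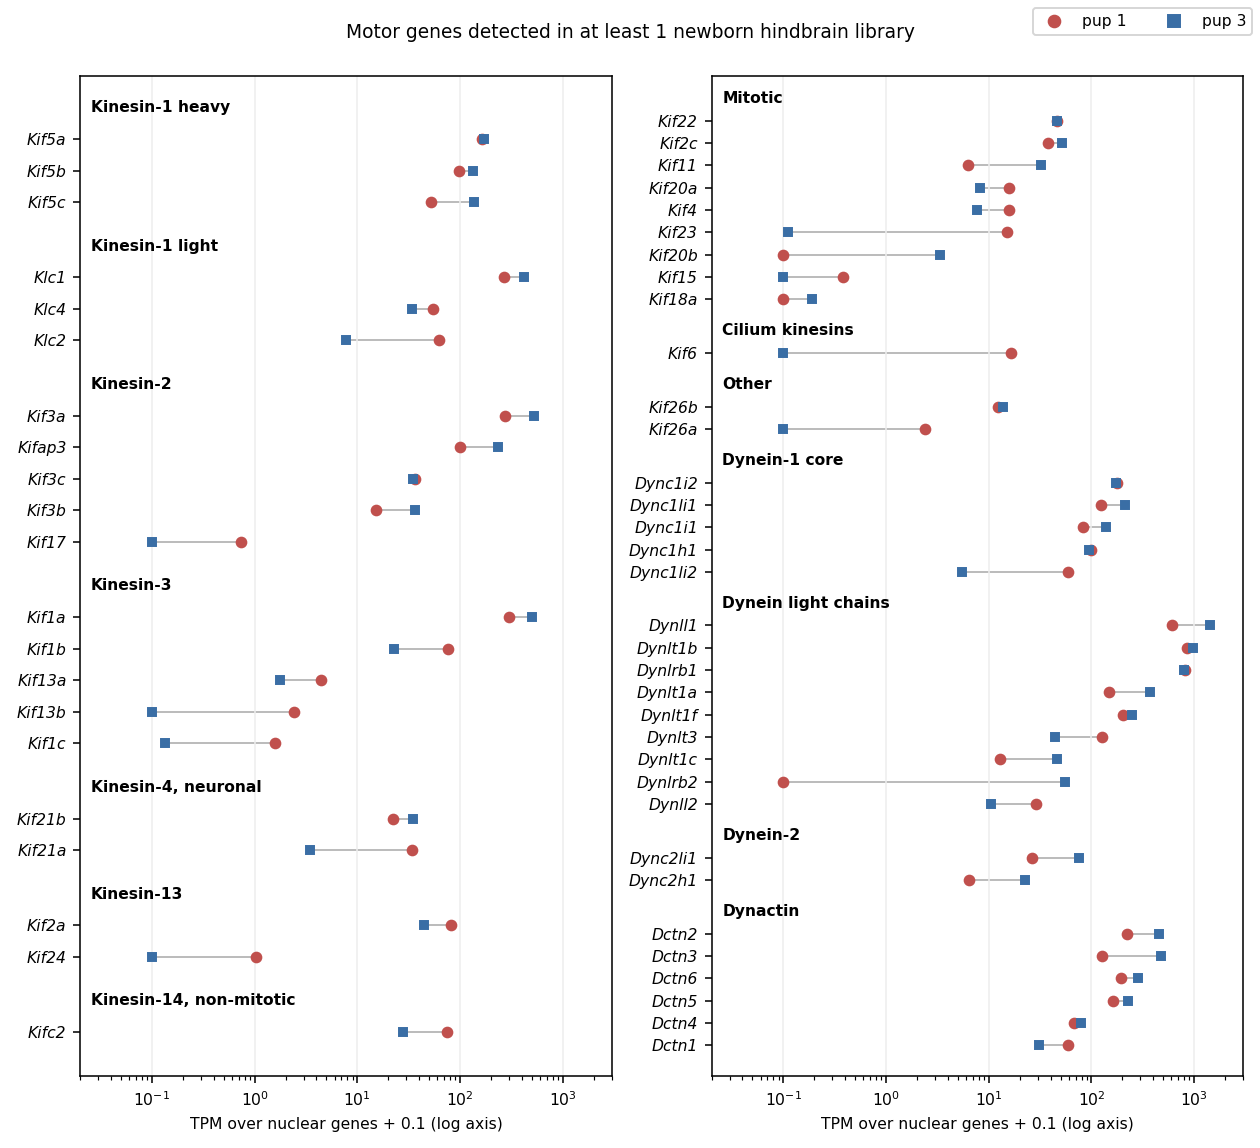
Levels of the 55 motor genes detected in at least 1 library, by role, on a log axis of TPM over nuclear genes plus 0.1, so that a gene with 0 TPM sits at 0.1. Circles are pup 1 and squares pup 3, 1 library each, joined by a line; the light chains Dynll1, Dynlt1b and Dynlrb1 lie farthest right in both pups, and the longest lines belong to Dynlrb2, Kif6 and Kif23.

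The heavy chains of kinesin-1, the main carrier of anterograde axonal transport, were present in both pups. Kif5a, the heavy chain restricted to neurons (ENSMUSG00000074657.4, chromosome 10, 127225696 to 127263348), had 164 TPM in pup 1 and 172 in pup 3. It was nearly level between the pups, with a log2 TPM difference of -0.06, although its sign changed under another scaling. Kif5b, the form found in most cell types, had 98.4 TPM in pup 1 and 132 in pup 3. Kif5c, the other neuronal form, had 51.8 TPM in pup 1 and 136 in pup 3. Kif5c thus had the largest difference of the 3, a log2 TPM difference of -1.38, and its share of the summed Kif5 TPM was 16.5% in pup 1 and 30.9% in pup 3. Kif5a held the largest share in both pups, 52.2% in pup 1 and 39.0% in pup 3.

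Kinesin light chains link these heavy chains to cargo. Klc1, the form best known from neurons, led the set in both pups, with 268 TPM in pup 1 and 415 in pup 3. Klc4 had 54.3 TPM in pup 1 and 33.8 in pup 3. Klc2 (ENSMUSG00000024862.12, chromosome 19, 5107746 to 5118560), another cargo-binding light chain, had 61.9 TPM in pup 1 and 7.64 in pup 3, from 963 counts in pup 1 and 245 in pup 3. Its log2 TPM difference of 2.86 was past 4-fold, but by CPM the log2 difference was 1.62, which is not, and over coding transcripts alone it was 1.52. Klc3, best known from developing sperm, had no count in either pup.

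Kinesin-2 carries cargo in axons and drives transport into cilia as a trimer of Kif3a, Kif3b and the adaptor Kifap3. Kif3a, the subunit common to its heterodimers, had 275 TPM in pup 1 and 528 in pup 3. Kif3b had 14.9 TPM in pup 1 and 36.0 in pup 3, and Kifap3 100.4 TPM in pup 1 and 232 in pup 3. All 3 subunits were therefore lower in pup 1, with log2 TPM differences of -0.94 for Kif3a, -1.22 for Kif3b and -1.20 for Kifap3. Kif3c, a neuronal partner that can take the place of Kif3b, had 36.1 TPM in pup 1 and 35.1 in pup 3, with reads that this other gene may share. Kif17, a kinesin-2 of dendrites and cilia that needs no Kif3 subunit, had 38 counts in pup 1 and 0 in pup 3. As a share of nuclear counts Kif17 was at least 10.7-fold higher in pup 1, a bound set against 3 counts in pup 3.

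Kinesin-3 motors move synaptic vesicle precursors, mitochondria and endosomes. Kif1a, the carrier of synaptic vesicle precursors (ENSMUSG00000014602.11, chromosome 1, 93015464 to 93101951), had 301 TPM in pup 1 and 505 in pup 3, and its log2 TPM difference was -0.75. The same gene had 23527 counts in pup 1 and 20464 in pup 3. By CPM its log2 difference was -0.04. Kif1b, a carrier of mitochondria and vesicles, was higher in pup 1, with 76.9 TPM in pup 1 and 22.6 in pup 3. Kif13a, an endosome motor, was low in both, with 4.35 TPM in pup 1 and 1.67 in pup 3. The remaining kinesin-3 genes were detected in pup 1 alone or in neither pup. Kif1c had 201 counts in pup 1 and 4 in pup 3, a ratio of nuclear count shares of 42.5 with a 95% counting interval of 16.3 to 157. Kif13b had 267 counts in pup 1 and 0 in pup 3, at least 75.2-fold higher in pup 1 against a floor of 3 counts. Kif16b, a motor of early endosomes, had 0 counts in both.

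Kif21a and Kif21b are neuronal kinesin-4 motors that also restrain microtubule growth. Kif21a (ENSMUSG00000022629.12, chromosome 15, 90933276 to 91049948) had 34.2 TPM in pup 1 and 3.34 in pup 3, from 4340 counts in pup 1 and 375 in pup 3. Its log2 TPM difference of 3.02 was past 4-fold, and it ranged from 2.79 to 3.35 over 7 scalings. Kif21b went the other way, with 22.2 TPM in pup 1 and 34.8 in pup 3, although over coding transcripts alone it had 16.3 TPM in pup 1 and 14.5 in pup 3, which turns the sign. Kif21a accordingly made up 60.7% of the summed Kif21 TPM in pup 1 and 8.75% in pup 3. This sum takes in Kif21b transcripts without a coding type, which held 26.5% of the Kif21b TPM in pup 1 and 58.4% in pup 3.

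The depolymerases of kinesin-13 take tubulin off microtubule ends. Kif2a, which trims axon branches, had 81.0 TPM in pup 1 and 44.5 in pup 3. Of its windows 16.8% are shared with Dimt1. By CPM it was close to level, at 155 CPM in pup 1 and 142 in pup 3. Kif24, a centriolar relative, had 17 counts in pup 1 and 0 in pup 3, a share at least 4.79-fold higher in pup 1. Kifc2, a minus-end-directed kinesin of neurons, had 75.0 TPM in pup 1 and 27.6 in pup 3, a log2 TPM difference of 1.41. Kifc3, another minus-end-directed kinesin, had 0 counts in both. Kif26b, a divergent kinesin, had 12.1 TPM in pup 1 and 13.6 in pup 3, while its relative Kif26a had 321 counts in pup 1 and 0 in pup 3, at least 90.4-fold higher in pup 1. Kif12 and Kif28 had 0 counts in both pups.

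**Figure D2:**
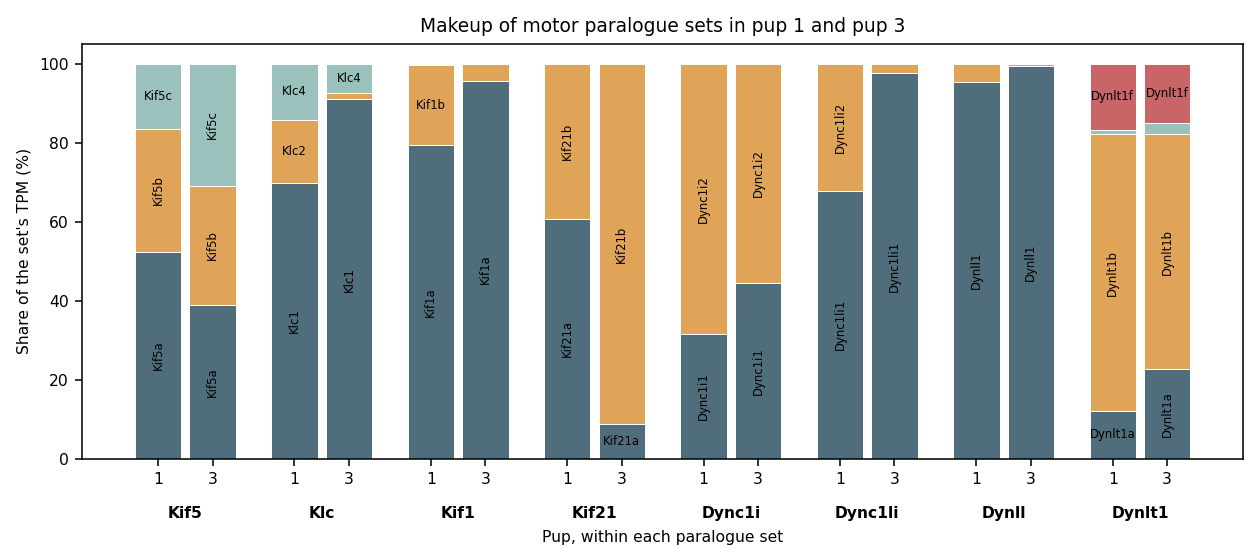
Share of each paralogue in the summed TPM of its set (%), over all annotated transcripts. Bars are pup 1 on the left and pup 3 on the right of each pair, 1 library each. Klc1, Kif1a, Dynll1 and Dync1li1 hold most of their sets in both pups, Dync1li1 with 67.8% in pup 1 and 97.5% in pup 3, whereas Kif21a holds 60.7% in pup 1 and 8.75% in pup 3; slices too thin for a name in at least 1 bar are Klc2, Kif1b, Kif1c, Dync1li2, Dynll2 and Dynlt1c.

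Of 13 mitotic kinesins 5 were detected in both pups, 2 in pup 1 only and 2 in pup 3 only. The share in both, 38.5%, is near the 37.8% of protein-coding genes, and the 3 of 7 past 4-fold (42.9%) are near the 40.7% of nuclear genes. Kif22, which pushes chromosome arms, was level, with 46.4 TPM in pup 1 and 46.2 in pup 3. Kif2c, the centromeric depolymerase, had 37.9 TPM in pup 1 and 51.7 in pup 3. Kif20a, a cytokinesis motor, had 15.6 TPM in pup 1 and 8.05 in pup 3, and 16.4% of its windows are shared with Cdc23. Kif4, a chromosome-bound kinesin that shares 13.3% of its windows with Pdzd11, had 15.7 TPM in pup 1 and 7.67 in pup 3. The log2 TPM difference of Kif4 was 0.95, and 0.34 over coding transcripts alone, since a 709-nt transcript without a coding type took 36.3% of its TPM in pup 1 on 6.65% of its counts. Kif11, the motor that pushes spindle poles apart (ENSMUSG00000012443.3, chromosome 19, 37376403 to 37421859), had 6.15 TPM in pup 1 and 31.8 in pup 3, a log2 TPM difference of -2.20. Kif23, the central spindle kinesin (ENSMUSG00000032254.9, chromosome 9, 61915905 to 61946774), had 1038 counts in pup 1 and 1 in pup 3. The ratio of its nuclear count shares was 877, with a 95% counting interval of 157 to 34689. Kif20b, a kinesin of the late stages of division (ENSMUSG00000024795.10, chromosome 19, 34922361 to 34975745), had the opposite pattern, with 0 counts in pup 1 and 328 in pup 3, at least 129-fold lower in pup 1. Kif15, a spindle motor that can act beside Kif11, had 28 counts in pup 1 and 0 in pup 3. Kif18a, which dampens chromosome movement, had 0 counts in pup 1 and 10 in pup 3. The share of Kif15 was at least 7.89-fold higher in pup 1, and that of Kif18a at least 3.94-fold lower. Kif18b (4 counts in pup 1) and Kifc1 (4.90 counts in pup 1) stayed below detection, with 0 counts in pup 3, and Kif14 and Kif2b had 0 in both.

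The mitotic motors summed to 138 TPM in pup 1 and 149 in pup 3. A list of 14 other genes of dividing cells summed to 516 TPM in pup 1 and 390 in pup 3, with 9 detected in both pups. Among these genes too some had counts in pup 1 alone and others in pup 3 alone. Mki67, a marker of cycling cells, had 8.29 TPM in pup 1 and 8.85 in pup 3. Racgap1, the binding partner of Kif23, had 46.8 TPM in pup 1 and 25.0 in pup 3. Prc1, which bundles the central spindle, had 3580 counts in pup 1 and 69 in pup 3, whereas Ccna2, a cyclin, had 73.8 counts in pup 1 and 2108 in pup 3. Aurka had 0 counts in both, Aurkb had 1848 in pup 1 and 0 in pup 3, and Cenpe, a mitotic kinesin outside the symbol rule, had 0 in pup 1 and 657 in pup 3. The part of dividing cells in the kinesin differences was not tested.

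A list of 5 further kinesins tied to cilia and to Hedgehog signalling left out the kinesin-2 genes above, which were detected. Of these 5 only Kif6, needed for the cilia of ependymal cells, was detected (ENSMUSG00000023999.10, chromosome 17, 49615136 to 49909847). It had 275 counts in pup 1 and 0 in pup 3, at least 77.5-fold higher in pup 1. All of its counts lay on transcripts that the annotation does not type as coding. Kif7, which works at the cilium tip, had 4 counts in pup 1 and 0 in pup 3. Kif9, Kif19a and Kif27 had 0 in both. Dynein-2 carries material back from the cilium tip. Its heavy chain Dync2h1 had 6.32 TPM in pup 1 and 22.4 in pup 3. Its light intermediate chain Dync2li1 had 26.4 TPM in pup 1 and 74.9 in pup 3. Both were lower in pup 1, with log2 TPM differences of -1.68 for Dync2h1 and -1.47 for Dync2li1.

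Proteins of intraflagellar transport, the trains that kinesin-2 and dynein-2 pull, were detected in both pups for 9 of 14 genes, in pup 1 only for 4 and in pup 3 only for 1. Past 4-fold were 4 genes higher in pup 1 and 2 higher in pup 3, and 6 of 14 (42.9%) is near the background of 40.7%. Ift46 had 114 TPM in pup 1 and 192 in pup 3. Ift20, a small subunit also found at the Golgi, had 24.0 TPM in pup 1 and 263 in pup 3. Ift88, a core subunit, had 2626 counts in pup 1 and 0 in pup 3. Axonemal dyneins, which beat motile cilia, were detected in neither pup for 6 of 10 genes, beside 68% of nuclear and 44.5% of protein-coding genes. None was detected in both, beside 20.6% and 37.8%. Their highest members were Dnah7a, with 973.5 counts in pup 1 and 0 in pup 3, and Dnah5, with 1192 counts in pup 1 and 0 in pup 3. Dnah11 had 296 counts in pup 1 and 0 in pup 3, whereas Dnah2 had 0 in pup 1 and 191 in pup 3. The list of 10 ependymal markers, of the ciliated ventricle lining, holds Dynlrb2 itself, and its other 9 genes summed to 86.3 TPM in pup 1 and 106 in pup 3, with 2 detected in both. Mlf1 made up most of the pup 3 sum, with 26.4 TPM in pup 1 and 100.3 in pup 3. Rarres2 had 26.0 TPM in pup 1 and 0 in pup 3, and Cfap43 had 23.7 TPM in pup 1 and 0 in pup 3. Rsph1, Ccno, Tmem212, Ccdc153 and Mcidas were at 0 in both pups, and Foxj1, the regulator of motile cilia, had 10.2 TPM in pup 1 and 5.43 in pup 3. The part of ciliated cells in these values was not tested.

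Cytoplasmic dynein-1 was detected in both pups with all 5 of its heavy, intermediate and light intermediate chain genes. Dync1h1, the heavy chain that holds the motor (ENSMUSG00000018707.9, chromosome 12, 110601452 to 110666945), had 98.4 TPM in pup 1 and 94.3 in pup 3. That near-equality depended on the scale, since its log2 difference was 0.06 by TPM and -0.58 by CPM. The intermediate chains bind dynactin. Dync1i2, the form of most cells, had 179 TPM in pup 1 and 175 in pup 3. Dync1i1, the form enriched in neurons, had 82.6 TPM in pup 1 and 139.6 in pup 3. The light intermediate chains bind the activating adaptors. Dync1li1 had 125 TPM in pup 1 and 213 in pup 3, a log2 TPM difference of -0.77. Dync1li2 (ENSMUSG00000035770.7, chromosome 8, 104417680 to 104443047) had the largest difference of the 5, with 59.1 TPM in pup 1 and 5.44 in pup 3. Its log2 TPM difference was 3.22, from 5555 counts in pup 1 and 450 in pup 3, and it ranged from 3.04 to 3.46 over 7 scalings. In pup 1 Dync1li2 made up 32.2% of the light intermediate chain TPM and in pup 3 2.49%.

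The light chains hold the dynein tail together and included the 3 motor genes with the highest mean TPM. By CPM Kif1a (703 in pup 1, 723 in pup 3) and Kif5a (632 in pup 1, 688 in pup 3) stood above every single light chain gene. That order depends on counting the Dynlt1 copies apart. Together the 4 copies held 17448 counts in pup 1, below Kif1a (23527) and Kif5a (21136). In pup 3 they held 21993 counts, above Kif1a (20464) and Kif5a (19469). Dynll1, of the LC8 family (ENSMUSG00000009013.4, chromosome 5, 115297110 to 115300999), had 604 TPM in pup 1 and 1437 in pup 3, a log2 TPM difference of -1.25. Its close relative Dynll2 went the other way, with 28.7 TPM in pup 1 and 10.5 in pup 3. Dynlrb1, the roadblock chain, was level, with 820.5 TPM in pup 1 and 803 in pup 3. Dynlrb2, a roadblock chain best known from ciliated tissue (ENSMUSG00000034467.6, chromosome 8, 116504974 to 116515915), had 0 counts in pup 1 and 401 in pup 3, a share at least 158-fold lower in pup 1. Dynlt3, a Tctex-type chain with no shared windows, was higher in pup 1, with 126 TPM in pup 1 and 44.5 in pup 3. The 4 Dynlt1 copies shown above summed to 1206 TPM in pup 1 and 1653 in pup 3, and the sum is firmer than its split. Within it Dynlt1b was assigned 843 TPM in pup 1 and 982 in pup 3, and Dynlt1a 147 TPM in pup 1 and 375 in pup 3. Dynlt1f was assigned 203 TPM in pup 1 and 249 in pup 3, and Dynlt1c 12.8 TPM in pup 1 and 46.1 in pup 3. Nearly all of the Dynlt1c TPM lay on retained-intron transcripts, and its coding transcripts had 0.0565 TPM in pup 1 and 0 in pup 3.

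All 6 dynactin genes were detected in both pups and none was past 4-fold, where the background was 40.7%. That background is not matched for level and also takes in genes detected in 1 pup only. Dctn1, the arm that touches the microtubule and binds dynein (ENSMUSG00000031865.11, chromosome 6, 83165920 to 83200117), was the only subunit higher in pup 1, with 59.6 TPM in pup 1 and 30.9 in pup 3. The shoulder subunit Dctn2 had 222 TPM in pup 1 and 459 in pup 3. Its shoulder partner Dctn3 had 128 TPM in pup 1 and 470 in pup 3. Both shoulder genes were lower in pup 1, with log2 TPM differences of -1.04 for Dctn2 and -1.87 for Dctn3. The pointed-end subunits, where cargo adaptors dock, differed less. Dctn6 had 195 TPM in pup 1 and 283 in pup 3, Dctn5 163 TPM in pup 1 and 225 in pup 3, and Dctn4 67.8 TPM in pup 1 and 79.3 in pup 3. The actin-related filament of dynactin, outside the symbol rule, was detected in both pups with 6 of 6 genes, none past 4-fold. Capzb, its barbed-end cap, had 381 TPM in pup 1 and 227 in pup 3, and the filament protein Actr1a had 241 TPM in pup 1 and 367 in pup 3.

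Regulators of dynein were given by a list of 15 genes. Of these 7 were detected in both pups, 4 in pup 1 only and 2 in pup 3 only, with 2 undetected, and of 11 with enough counts 3 were past 4-fold higher in pup 1 and 4 higher in pup 3, 63.6% in all beside the background of 40.7%. Nudc, a chaperone that aids dynein assembly, had 156 TPM in pup 1 and 145 in pup 3. Ndel1, which ties Lis1 to dynein, had 17.3 TPM in pup 1 and 93.3 in pup 3. Pafah1b1, the gene of Lis1 itself, was level, with 42.3 TPM in pup 1 and 42.9 in pup 3. Nde1, the relative of Ndel1, had 1748 counts in pup 1 and 1 in pup 3. The adaptor Bicd2 had 1687 counts in pup 1 and 0 in pup 3. The lysosomal adaptor Rilp had 0 counts in pup 1 and 910 in pup 3. Of 24 kinesin adaptor and cargo genes, 19 were detected in both pups, 4 in pup 1 only and 1 in neither. Of 22 with enough counts 7 were past 4-fold higher in pup 1 and 1 higher in pup 3, which at 36.4% is near the background of 40.7%. Fez1, a kinesin-1 adaptor of axons, had 369 TPM in pup 1 and 715 in pup 3. Clstn1, a cargo receptor that binds kinesin light chains, had 153 TPM in pup 1 and 58.7 in pup 3.

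The gene level in these tables is a sum over annotated transcripts, and for several long motors a short transcript set it. Transcript Dync1h1-201, which encodes the full heavy chain in 14342 nt, held 6270 counts in pup 1 and 8134 in pup 3, but only 21.6% of the gene's TPM in pup 1 and 33.2% in pup 3. The retained-intron transcript Dync1h1-204, with 427 nt, held 402 counts in pup 1 and 220 counts in pup 3, yet 60.1% of the gene's TPM in pup 1 and 38.9% in pup 3. Transcripts without a coding type thus made up 78.4% of the Dync1h1 TPM in pup 1 and 66.8% in pup 3, on 8.57% of its counts in pup 1 and 6.20% in pup 3. The coding transcripts of Dync1h1 alone had 21.2 TPM in pup 1 and 31.3 in pup 3. A like pattern was found in Kif1a, where transcripts shorter than 1000 nt took 55.8% of the TPM in pup 1 and 67.4% in pup 3, on 6.54% of the counts in pup 1 and 13.5% in pup 3.

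Of the 44 members detected in both pups, 24 had no TPM on transcripts without a coding type. In 7 members such transcripts made up most of the TPM in pup 1, in 6 members in pup 3, and in 5 in both. They took 99.6% of the Dynlt1c TPM in pup 1 and 100% in pup 3, and 63.0% of the Dynll1 TPM in pup 1 and 66.9% in pup 3. In Dctn6 they took 59.9% in pup 1 and 66.8% in pup 3, led by a retained-intron transcript in both. In Klc2 they took 80.8% in pup 1 and 53.9% in pup 3, which left 11.9 TPM in pup 1 and 3.52 in pup 3 on coding transcripts. Among the 44 members these shares differed most between the pups in Kif1b and Dync2h1. Transcripts of Kif1b without a coding type, which retain introns, took 55.1% of its TPM in pup 1 and 0.0990% in pup 3, so its coding transcripts had 34.5 TPM in pup 1 and 22.5 in pup 3. For Dync2h1 the shares were 65.0% in pup 1 and 0.997% in pup 3, and coding transcripts had 2.21 TPM in pup 1 and 22.2 in pup 3.

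**Figure D3:**
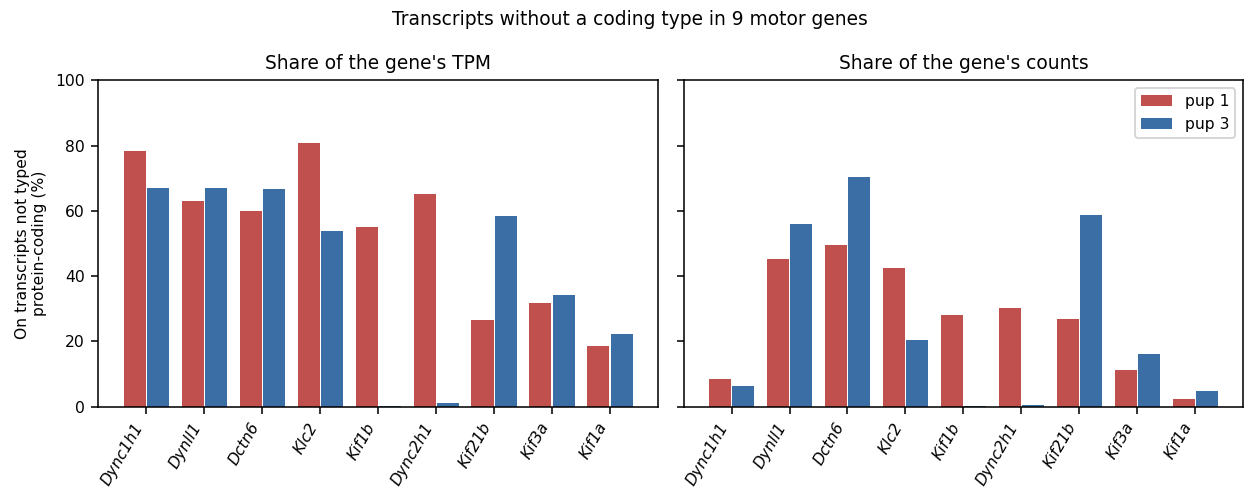
Share of TPM (left) and of expected counts (right), in percent, on transcripts that GENCODE M21 does not type as protein-coding. The 9 motor genes were chosen after the values were seen, and bars are pup 1 (left) and pup 3 (right), 1 library each. Dynlt1c, at 99.6% of TPM in pup 1 and 100% in pup 3, is not drawn. For Dync1h1 the bars reach 78.4% of TPM in pup 1 but 8.57% of counts, while for Dynll1 and Dctn6 they are large on both scales.

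**Figure D4:**
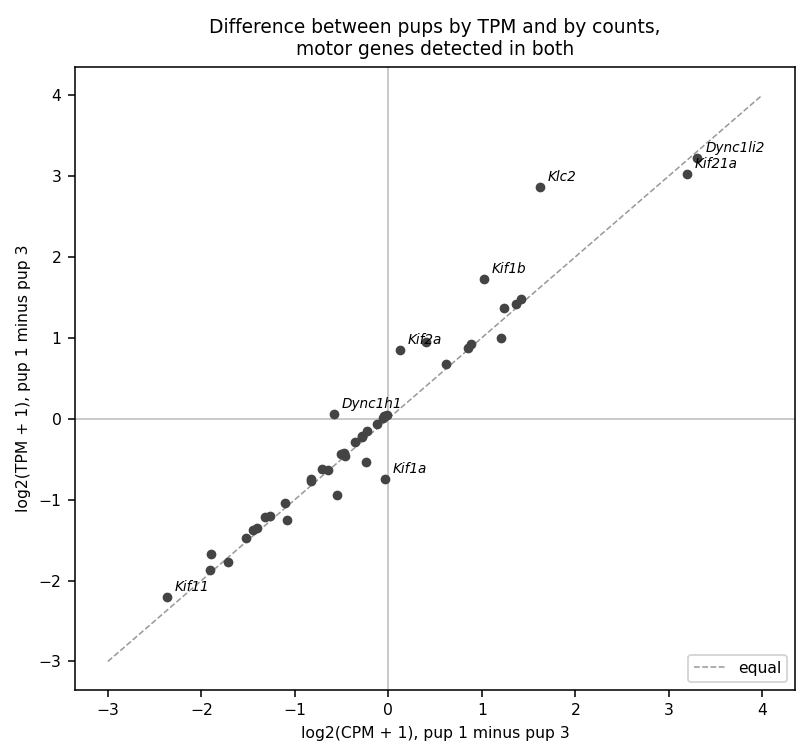
Difference between the pups for the 44 motor genes detected in both, pup 1 minus pup 3, as log2(TPM + 1) on the vertical axis and log2(CPM + 1) on the horizontal axis; each point is 1 gene and the dashed line marks equality. Most genes lie near the line, Klc2 (2.86 by TPM, 1.62 by CPM) and Kif1b lie above it, and Kif1a lies below it.

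The sign of the difference was the same by TPM and by CPM for all but 5 of the 44 members. The leading transcript, the annotated transcript with the largest share of a gene's TPM, was the same in both pups for 22 of the 28 members with more than 1 transcript. It differed for Dync2h1, Dynll2, Kif1a, Kif21b, Kif3a and Klc2. In Kif21b the coding transcript Kif21b-201 led in pup 1 with 73.5%, while Kif21b-204, typed as a target of nonsense-mediated decay, led in pup 3 with 58.2%. Kif1a led with the 8206-nt transcript Kif1a-204 in pup 1, at 41.6%, and with the 528-nt Kif1a-206 in pup 3, at 45.1%. Ranked by expected count in place of TPM, the leading transcript was the same for 24 of the 28 members. On that scale Kif1a-204 led Kif1a and Kif3a-203 led Kif3a in both pups. Kif5a and Dync1li2 have a single annotated transcript in the tables, so their levels do not depend on such a split.

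Where several coding transcripts compete, the estimates also differed between the pups. Dync1i1-204 held 95.3% of the Dync1i1 TPM in pup 1 and 60.6% in pup 3, where Dync1i1-203 took 23.9% and Dync1i1-201 15.2%. In Dync1i2 the split was closer, with Dync1i2-207 at 64.4% in pup 1 and 60.7% in pup 3 and Dync1i2-201 at 33.9% in pup 1 and 38.5% in pup 3. Dctn1-203 held 52.8% of the Dctn1 TPM in pup 1 and 97.4% in pup 3, with Dctn1-202 at 27.8% in pup 1 and 0% in pup 3. Klc1 divided itself alike in both pups, with Klc1-202 at 54.7% in pup 1 and 44.8% in pup 3 and Klc1-203 at 34.3% in pup 1 and 40.9% in pup 3. Kif21a-204 led Kif21a with 60.4% in pup 1 and 57.1% in pup 3. In Kif2a the transcript Kif2a-201 took 41.1% in pup 1 and 84.8% in pup 3, and the 288-nt Kif2a-205 took 25.5% of the TPM in pup 1 on 81.0 counts, and 0% in pup 3. The main transcript Kif2a-201 itself had 33.3 TPM in pup 1 and 37.8 in pup 3. Kif1b-203 led Kif1b with 44.9% in pup 1 and 99.9% in pup 3.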

How the data were processed

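The authors deposited a gene and a transcript table for each of the 2 libraries, on mm10 with annotation M4 per the deposited notes. Per the file headers each table holds an expected count, TPM, FPKM, the percent of a gene's TPM on each transcript and a posterior SD of the count, in the layout of RSEM. For the aligner, its version and the use of strand, nothing is given in the sources used here, so reads of overlapping genes cannot be told apart. Symbols, types, positions and sequences come from GENCODE M21 on GRCm38, the same assembly; 42462 of 43346 mouse gene identifiers (98.0%) matched by stable identifier. Of 279 member transcripts 278 are in M21, 247 with the same length. Deposited TPM was rescaled over 43309 nuclear genes, leaving out spike-ins (2.31% of counts in pup 1, 2.18% in pup 3) and mitochondrial genes. A pseudocount of 1 understates differences of low genes. Shares of nuclear counts gave folds against 3 counts and exact 95% binomial intervals, which take in counting error only: copies made by amplification are not separate molecules. Shared windows were 100 nt, both strands, the length that the deposited effective lengths imply.

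No test was possible with 1 group of 2 libraries, and whether the libraries differ by animal or by handling cannot be told apart. Alternatives changed the detection minimum, fold, pseudocount, count minimum, scaling (deposited TPM and FPKM, CPM, factors from edgeR 4.0.16 and DESeq2 1.42.0 on rounded expected counts), depth and library. Coding transcripts alone and the 4 Dynlt1 copies as 1 locus were added after seeing the data. Values were printed for the 4 highest members of each role list, members past 4-fold or detected in 1 pup, the 2 highest genes of each other list and 9 isoform genes; further genes were chosen after their values were seen. Members and lists were chosen with earlier results of these data known. Kif25, Kbp, Dnai1 and Dnai2 had no match by symbol, though Kbp is another name of Kif1bp, which the adaptor list holds. Computation used Python 3.11.15 with pandas 2.3.3 and R 4.3.3. The fold count was tested on simulated data, which checks the calculation only. That test cannot tell whether a difference between these libraries comes from the animals or from handling and amplification.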

Additional observations from a re-analysis of the deposited data

How the results depend on the processing

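No paired analysis was possible because there is 1 group. The number of motor genes past 4-fold, 8 in the report, was 25 at 2-fold and 5 at 8-fold, since the threshold itself moved, and lay between 6 and 11 under the other pseudocounts, count minimums and scalings. The median log2 difference of -0.26 (pup 1 minus pup 3) was -0.15 with edgeR factors and -0.12 with DESeq2 factors. These factors also moved the median over all nuclear genes, which was -0.02 and 0.01, so the members stayed below it by a like amount. Over the 55 members detected in at least 1 pup the median was -0.12, where all nuclear genes gave 0.17, and with the 9 members at 0 counts in 1 pup set at their bound it was -0.15. Each library alone detected 47 to 52 members and gave a summed level of 6090 to 8804 TPM. The number detected in both pups was 41 with the Dynlt1 copies as 1 locus and 44 to 46 otherwise. Klc2 was under 4-fold by CPM (1.62), with edgeR (1.75) and DESeq2 factors (1.78) and over coding transcripts (1.52), Kif20b by deposited TPM (-1.98) and FPKM (-1.59), and Kif6 had 0 over coding transcripts. Kif13b (3.17), Kif26a (3.41) and Kif1c (2.62) passed it by CPM and with both kinds of factors, and Dync2h1 (-2.85) over coding transcripts. Of the 44 members in both pups, 35 kept their sign in all 7 scalings, 13 higher in pup 1 and 22 in pup 3. The signs of Dync1h1, Dync1i2, Dynlrb1, Dynlt1c, Kif1a, Kif21b, Kif22, Kif3c and Kif5a changed. Of the 51 members tested for 4-fold, 5 were past it in all 7 scalings: Dync1li2, Kif21a and Kif11, detected in both pups, and Kif23 and Dynlrb2, detected in 1.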
